A study of Mus musculus with 48 samples.

Results

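The genes described here are 10 genes of insulin-like growth factor (IGF) binding and of imprinted growth control, namely *Igf1*, *Igf2*, *Igfbp3*, *Igfbp5*, *Igfbp7*, *Mest*, *Dlk1*, *Peg3*, *Plagl1* and *H19*. They were chosen by the level of their signals and their tumor minus naive changes on these arrays, which were already known, so their values stand as a description and carry no test. Of the 10 genes, 9 had a probe in the annotation used, *H19* was not analysed here, and 8 passed the filter for signal above background, out of 13047 genes that passed it in all. *Plagl1* did not pass. Its 3 probes lay between 4.43 and 5.23 in all replicates, below the background level of 5.63, and are not well above background in any of the 8 groups.

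IGF1 and IGF2 are secreted growth factors that signal through the IGF1 receptor, and the IGF2 receptor takes IGF2 up for degradation. IGF binding proteins hold most of the IGFs outside the cell and set how much of them reaches the receptors, and proteases such as PAPP-A release the factors again. *Igf2*, *Mest*, *Dlk1*, *Peg3* and *Plagl1* are imprinted genes read from the paternal copy, and *H19* is read from the maternal copy next to *Igf2*. Many imprinted genes control growth before birth and are turned down in adult tissues, where stromal and progenitor cells can keep some of them on.

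Stromal cells came from skin-draining lymph nodes of wild-type control mice, called naive here (the study's methods name C57BL/6N mice), and of mice that had received Eμ-*Myc* B lymphoma cells by intravenous transfer, called the tumor group. Eμ-*Myc* cells carry a *Myc* transgene driven by the immunoglobulin heavy chain enhancer, and the stroma profiled here is that of the host. Between 200000 and 400000 cells were injected per mouse, and lymph nodes held tumor cells at 4% to 10% of lymphocytes. After depletion of CD45+ cells, fibroblastic reticular cells (FRCs, CD31-gp38+), blood endothelial cells (BECs, CD31+gp38-), lymphatic endothelial cells (LECs, CD31+gp38+) and double-negative cells (DN cells, CD31-gp38-) were sorted. The 8 groups held 3 biological replicates each, every replicate was read on 2 strips, and each array received 80 ng of RNA pooled from 4 to 6 sorts. The study's methods give male and female mice aged 8 to 12 weeks for its experiments. Whether replicates came from separate animals is not given in the labels, so the spread between replicates may be partly technical. Strips held 863780 to 1044181 beads, and the number of arrays limits the precision.

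The genes of the sort markers fitted the labels in naive FRCs, LECs and BECs. *Pdpn*, which encodes gp38, had a mean log2 signal of 14.41 in naive FRCs and 14.20 in naive LECs against 8.82 in naive BECs, and *Pecam1*, which encodes CD31, had 14.60 in naive BECs against 7.31 in naive FRCs. The lymphatic marker *Lyve1* had 11.29 in naive BECs against 14.29 in naive LECs. DN cells are a mixed fraction, in which naive *Pdpn* still reached 11.25 ± 1.93 (SD, n = 3) and tumor *Pecam1* 10.76 ± 0.30. Each cell type had a slide to itself that carried its 6 arrays, with naive replicates on places A to C and tumor replicates on D to F of every slide. Cell type and slide cannot be told apart, nor can tumor state and place on the slide within a cell type. In a sorted bulk sample, fewer cells of a type and less RNA per cell cannot be told apart either.

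The start regions of *Mest*, *Igf2*, *Dlk1* and *Peg3* are shown because these are the 4 imprinted genes among the 10 that were measured above background. All had lower signals in each tumor replicate of FRCs than in each naive one. RefSeq windows were found for 9 of the 10 genes, 14 windows in all. They run from 250 bases before to 50 bases after a RefSeq transcript start on GRCm38.p6, and for genes with several starts the window with the most CpG sites is printed (of 2 equal *Mest* windows, 3 bases apart, the first). Capitals mark CG, the dinucleotide at which imprinted genes carry parental methylation. The *Mest* window is chr6:30737800-30738099 on the plus strand, the *Igf2* window chr7:142658755-142659054 on the minus strand, the *Dlk1* window chr12:109452573-109452872 on the plus strand and the *Peg3* window chr7:6730370-6730669 on the minus strand.
Mest: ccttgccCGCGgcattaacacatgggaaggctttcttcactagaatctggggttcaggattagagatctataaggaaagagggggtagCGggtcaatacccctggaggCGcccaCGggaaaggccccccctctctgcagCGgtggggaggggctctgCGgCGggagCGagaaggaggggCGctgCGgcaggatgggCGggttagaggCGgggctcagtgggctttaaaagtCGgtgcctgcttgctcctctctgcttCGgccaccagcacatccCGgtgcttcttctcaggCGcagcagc
Igf2: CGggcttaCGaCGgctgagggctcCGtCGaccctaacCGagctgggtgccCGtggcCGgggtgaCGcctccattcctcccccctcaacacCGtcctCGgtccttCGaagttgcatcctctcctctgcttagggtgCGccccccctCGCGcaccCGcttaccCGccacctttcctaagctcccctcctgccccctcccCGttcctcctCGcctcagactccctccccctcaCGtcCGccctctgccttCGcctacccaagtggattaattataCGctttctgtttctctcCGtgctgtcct
Dlk1: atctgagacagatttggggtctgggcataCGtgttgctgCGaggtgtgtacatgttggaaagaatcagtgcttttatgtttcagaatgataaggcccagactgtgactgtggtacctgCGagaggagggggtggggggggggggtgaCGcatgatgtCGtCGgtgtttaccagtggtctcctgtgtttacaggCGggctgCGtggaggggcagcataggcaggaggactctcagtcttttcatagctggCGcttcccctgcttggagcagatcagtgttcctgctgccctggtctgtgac
Peg3: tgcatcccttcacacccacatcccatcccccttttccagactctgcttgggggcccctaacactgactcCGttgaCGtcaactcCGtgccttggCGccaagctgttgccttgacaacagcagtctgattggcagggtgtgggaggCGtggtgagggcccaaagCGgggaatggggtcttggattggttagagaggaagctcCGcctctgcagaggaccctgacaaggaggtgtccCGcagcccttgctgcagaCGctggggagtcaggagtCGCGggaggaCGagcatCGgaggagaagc

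The *Igf2* window held 24 CG sites, a number that 20% of all 32851 RefSeq windows of this length reached. *Mest* had 17, *Peg3* 13 and *Dlk1* 9, and 31.4%, 37.9% and 45.8% of all windows held at least as many. The median window had 7. The GC box letters GGGCGG, searched on both strands, were found in the *Mest* and *Igf2* windows and in 35.7% of all windows, and the letters CCAAT occurred in the *Peg3* window and in 37.4%. The TATA letters TATAAA, present in 13.6% of all windows, were in none of the 4. Methylation was not measured, and the arrays do not show which parental copy was read.

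In naive mice, each gene had an order of its own over the 4 cell types (the plot of signals by replicate shows all values). A pair of neighbours in such an order is called apart when the replicate ranges did not overlap, which was the case for 32.7% of neighbouring pairs over all genes. All values in this account are log2 signals of 1 probe per gene, so they can be compared between groups for a gene and not between genes.

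The ligand *Igf1* was brightest in naive FRCs, with 11.74, 11.63 and 11.47, followed by LECs with 10.77, 10.66 and 10.84. BECs (9.63, 9.51 and 8.67) and DN cells (8.49, 11.11 and 7.85) had lower means and overlapped. FRCs and LECs were tight and apart, while DN replicate 2 lay above all LECs and the other DN replicates below them. *Igf2* had 11.90, 12.07 and 12.60 in naive FRCs, 11.20, 12.27 and 12.08 in BECs and 11.20, 13.03 and 11.28 in DN cells, which overlapped. Naive LECs were apart below them, with 10.87, 10.77 and 11.00.

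Among binding proteins, *Igfbp3*, the main carrier of IGFs in blood, was brightest in naive BECs (13.94, 13.46 and 14.02). FRCs followed, apart by a mean difference of 1.11, with 12.52, 12.64 and 12.92, and LECs had 9.39, 10.03 and 9.78. DN cells, with 9.54, 12.72 and 9.28, overlapped both FRCs and LECs, and their mean stood above that of LECs through replicate 2. *Igfbp5*, a binding protein deposited in the matrix, had another order. It was brightest in FRCs (15.48, 15.42 and 15.58), then came DN cells with a mean of 14.42 ± 0.50 (SD, n = 3), LECs with 13.68 ± 0.29 (SD, n = 3) and BECs with 11.69 ± 1.00 (SD, n = 3), and all neighbours were apart. *Igfbp7*, a related secreted protein of vessel walls with low affinity for IGFs, was bright everywhere, from a mean of 14.43 in DN cells to 15.22 in BECs. BECs and LECs were apart, as were FRCs and DN cells. The highest replicate value of any gene was 16.05, so a bright probe leaves little room for a rise.

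The imprinted genes separated the stroma along other lines. *Mest*, which encodes a hydrolase-like protein of the endoplasmic reticulum, had naive means of 9.42 ± 0.11 (SD, n = 3) in FRCs, 8.55 ± 0.77 in BECs, 8.42 ± 0.23 in LECs and 6.02 ± 0.81 in DN cells. DN cells were apart below the others, and BECs overlapped both neighbours. *Dlk1*, which encodes a membrane protein that keeps fat cell precursors undifferentiated, was high in DN cells (10.66, 11.58 and 10.77) and FRCs (10.65, 10.64 and 11.60) and was apart from BECs (7.64, 10.20 and 7.88) and LECs (6.69, 7.84 and 7.31). *Peg3*, which encodes a zinc finger protein, had the widest step of the 8 genes between neighbours, from 12.74 ± 0.14 (SD, n = 3) in FRCs to 9.34 ± 0.85 in DN cells. BECs, with 7.79 ± 0.59, and LECs, with 7.67 ± 0.30, lay below both.

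**Figure D1:**
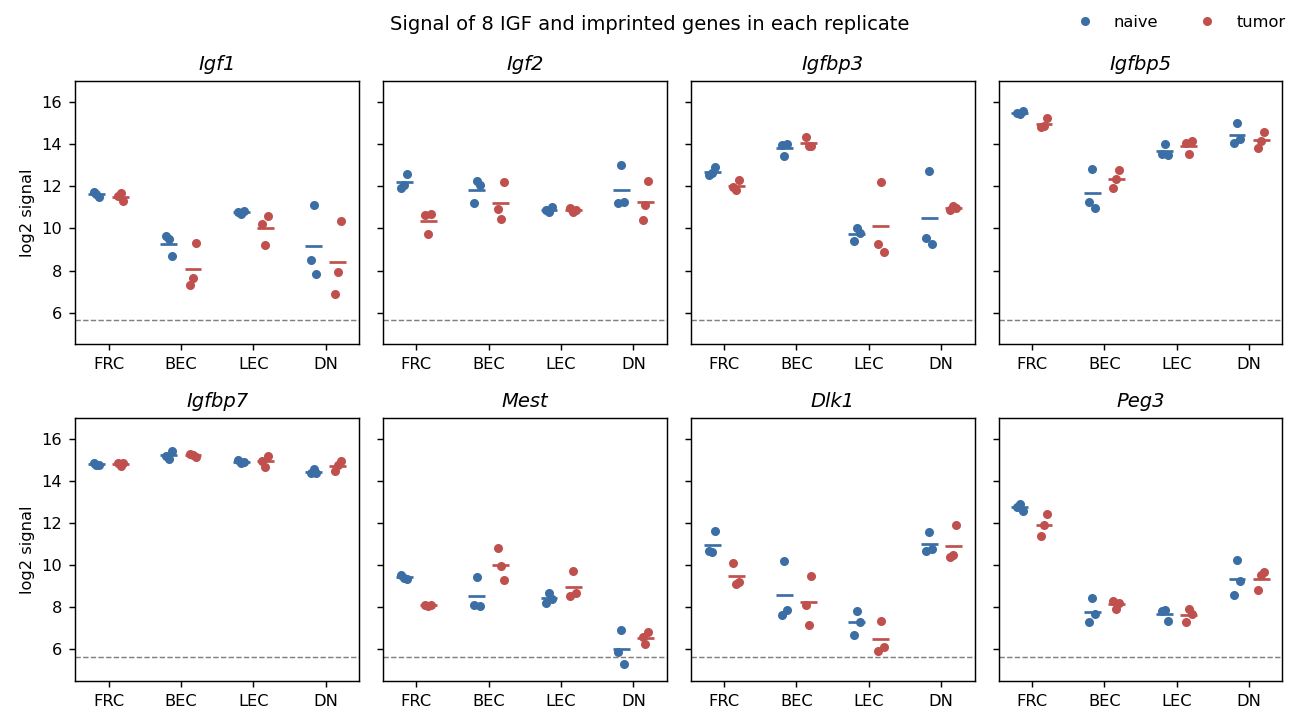
Log2 signal (vertical axis) of 8 genes in every replicate (points) of naive (blue) and tumor (red) FRCs, BECs, LECs and DN cells, with group means as short lines and the background level of 5.63 dashed. FRC points sit close together, and for Mest, Igf2, Dlk1, Peg3, Igfbp3 and Igfbp5 all 3 tumor points of FRCs lie below all 3 naive points.

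In FRCs, 6 of the 8 genes had every tumor replicate below every naive replicate and none had the reverse. Over all genes, 39.6% did not overlap in FRCs, 20% being lower and 19.6% higher. The limma test called 2 of the 8, *Mest* and *Igf2*, both lower, where it called 4.14% of all genes lower, 6.44% higher and 10.6% in either direction. Since the genes were chosen with these changes known, the counts are a description.

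*Igf2* showed the widest change of the 8 genes in FRCs. Its naive replicates had 11.90, 12.07 and 12.60 and its tumor replicates 10.65, 9.75 and 10.70, so the groups were more than 1 unit apart at their nearest. The change was -1.82 (SE 0.51), a signal 3.53-fold lower in the tumor group. *Mest* was the most even, with 9.54, 9.40 and 9.32 in naive FRCs and 8.09, 8.07 and 8.10 in the tumor group. The change was -1.34 (SE 0.42, from the spread over all 4 cell types), or 2.52-fold lower, and its standard error within FRCs alone was 0.12. Its other 2 probes above background changed in the same direction, by -0.98 and -1.16. The *Mest* call stood in 6 of 19 other settings and the *Igf2* call in 13 of 19. *Mest* lost it without any 1 of the 6 FRC replicates and *Igf2* without any but tumor replicate 3, and neither change turned its sign.

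*Dlk1* had 10.65, 10.64 and 11.60 in naive FRCs and 10.09, 9.13 and 9.21 in the tumor group. The change of -1.49 (SE 0.64) was 2.80-fold, with the tumor replicates below the naive ones, and a second, dimmer probe gave -1.35. *Peg3* had 12.75, 12.88 and 12.59 against 11.36, 11.92 and 12.45, a change of -0.83 (SE 0.37). Tumor replicate 3 lay just below the naive range, and the other tumor replicates stood clear of it.

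Binding proteins in FRCs differed by less. *Igfbp3* had 12.52, 12.64 and 12.92 in naive mice and 11.97, 11.81 and 12.31 in the tumor group, a change of -0.67 (SE 0.72). *Igfbp5* had 15.48, 15.42 and 15.58 against 14.84, 14.89 and 15.23, a change of -0.51 (SE 0.37). Both were lower without overlap, by less than 2 standard errors of the model. *Igf1* overlapped between the states, with a change of -0.11 (SE 0.76), and *Igfbp7* with 0.00 (SE 0.15). The model takes 1 spread per gene over all cell types, and some groups outside FRCs spread widely. *Igf1* had SDs of 1.73 and 1.79 in naive and tumor DN cells, and *Igfbp3* had SDs of 1.91 in naive DN cells and 1.82 in tumor LECs.

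Beside these changes, 9 of 9 tested cell cycle genes rose in FRCs of the tumor group, with a median change of 3.27. They also rose in the other cell types, 8 of 9 in BECs, 7 in LECs and 8 in DN cells. None of 10 FRC markers was called by limma in either direction, and their summed signal was 17.72 to 17.89 in naive and 17.40 to 18.01 in tumor FRCs. The sum joins genes that went both ways. *Pdgfra*, *Col1a1*, *Col1a2* and *Col3a1* were lower without overlap, *Col3a1* with 13.66, 13.60 and 13.51 in naive and 12.49, 12.45 and 13.30 in tumor FRCs. The means of *Pdpn* and *Ccl19* were higher in tumor FRCs, going from 14.41 to 14.75 and from 13.76 to 14.99. The summed leukocyte marker signal lay at 11.09 to 11.73 in naive and 12.34 to 13.56 in tumor FRCs on the log2 scale, and *Ptprc*, the gene of CD45, was below background in both. Of the other marker lists, 2 of 10 pericyte and 2 of 8 myeloid markers rose in FRCs, 1 of 6 epithelial markers fell, and none of 8 lymphatic, 10 blood endothelial, 7 leukocyte, 5 B cell, 5 adipocyte, 4 Schwann cell, 8 skeletal muscle and 7 acinar markers was called by limma. The part of these signals in the changes of the 8 genes was not tested.

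**Figure D2:**
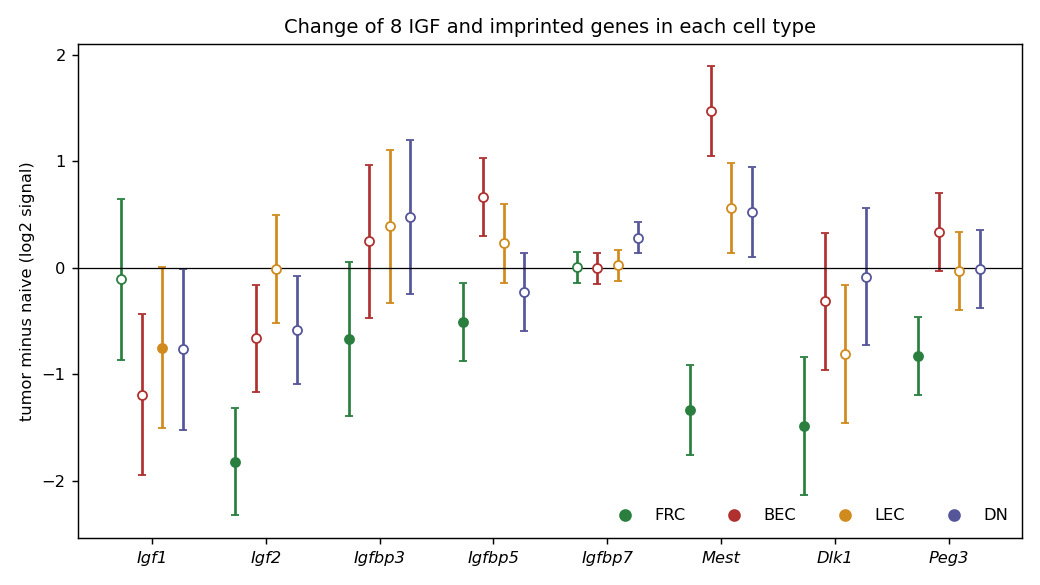
Tumor minus naive change in log2 signal (vertical axis) of 8 genes in each cell type, with standard errors of the limma model as bars. Filled points mark changes whose naive and tumor replicates do not overlap. These are 6 genes in FRCs and Igf1 in LECs, all below 0.

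The other imprinted genes and the other genes of the IGF system were taken from lists of ligands, receptors, binding proteins, proteases, signalling genes and imprinted genes, of which 55 besides the 8 passed the filter. The lists were chosen with earlier results of these data known, so the counts are a description. In FRCs, 8 of these 55 were called, or 14.5%, beside 10.6% of all genes. There were 7 called lower and 1 called higher, and the median change of the 55 was -0.27 where that of all genes was -0.03. The 1 called higher, *Igfbpl1*, passed the filter only through tumor FRCs. With values as deposited, 9 were called lower and none higher. At an unadjusted p under 0.05, 21 of the 55 differed, beside 25.6% of all genes. By list, and without the 8, limma called none of 3 ligands and receptors or of 5 genes of the growth hormone axis in FRCs. The calls were 1 of 5 binding proteins, 1 of 5 proteases and their relatives, 1 of 7 other secreted proteins and 2 of 9 genes of receptor signalling, and among imprinted genes 1 of 11 read from the paternal and 2 of 11 read from the maternal copy. Without FRC tumor replicate 2, 5 of the 55 were called.

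Of 26 imprinted genes above background in any group, 22 were not among the 4 chosen for their changes. Their list, too, was chosen with earlier results of these data known. *Meg3* passed the filter only through naive FRCs, *Asb4* and *Zdbf2* only through naive BECs, and *Nap1l5* only through naive FRCs and DN cells. Their lower tumor signals there were partly set by the filter. *Nnat* passed only through tumor FRCs. In FRCs, 20 of these 22 had a change below 0, beside 52.5% of all genes, and their median change was -0.37. There were 9 lower and none higher without overlap, beside 20% and 19.6% of all genes, and 3 of the 22 were called by limma. In BECs, 15 of the 22 had a change below 0, 5 were lower and 1 was higher without overlap, beside 53.8%, 13.2% and 13% of all genes. In LECs these counts were 15, 2 and 1, beside 50.3%, 9.29% and 11.3%, and in DN cells 17, 4 and 0, beside 57.2%, 7.99% and 8.01%. The counts include genes at background in the cell type counted. In FRCs no replicate of *Asb4* exceeded the level, and 1 naive replicate each of *Ascl2* and *Zdbf2* did. The gene counted as higher was *Rtl1* in BECs, with no replicate above the level, and *Nnat* in LECs, with 1. *Rian*, a noncoding RNA read from the maternal copy of the chromosome 12 cluster that also holds *Dlk1*, fell 3.34-fold. Its naive replicates had 7.50, 7.30 and 8.57 and its tumor replicates 5.88, 6.15 and 6.12, a change of -1.74 (SE 0.24, limma adjusted p = 0.000179). *Rtl1*, a retrotransposon-derived gene of the same cluster read from the paternal copy, fell from 6.82, 6.74 and 6.88 to 5.69, 5.54 and 6.10 (change -1.04, SE 0.15, limma adjusted p = 0.000323). *Meg3*, another maternally read noncoding RNA of the cluster, had a change of -0.83 (SE 0.26) and did not pass, with a limma adjusted p of 0.052. All 3 genes were near background in tumor FRCs, where 3 replicates of *Rian*, 2 of *Rtl1* and 1 of *Meg3* exceeded the level. In the other cell types no replicate did, except 2 of *Rtl1* in tumor DN cells.

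*Cdkn1c*, which encodes the cell cycle inhibitor p57 and is read from the maternal copy near *Igf2* on chromosome 7, fell in FRCs and in BECs. In FRCs it had 14.80, 14.69 and 14.34 in naive mice and 12.86, 12.73 and 13.53 in the tumor group, a change of -1.57 (SE 0.35, limma adjusted p = 0.0079) or 2.97-fold. In BECs it went from 12.49, 12.88 and 12.10 to 10.58, 10.52 and 11.92 (change -1.48, SE 0.35, limma adjusted p = 0.0186). The replicates of LECs did not overlap either, with a change of -0.89 (SE 0.35) that did not pass (limma adjusted p = 0.397), and those of DN cells overlapped with a change of -0.24. The FRC call was lost without FRC tumor replicate 2, and the BEC call without naive replicate 1 or 2 or tumor replicate 1 or 2.

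**Figure D3:**
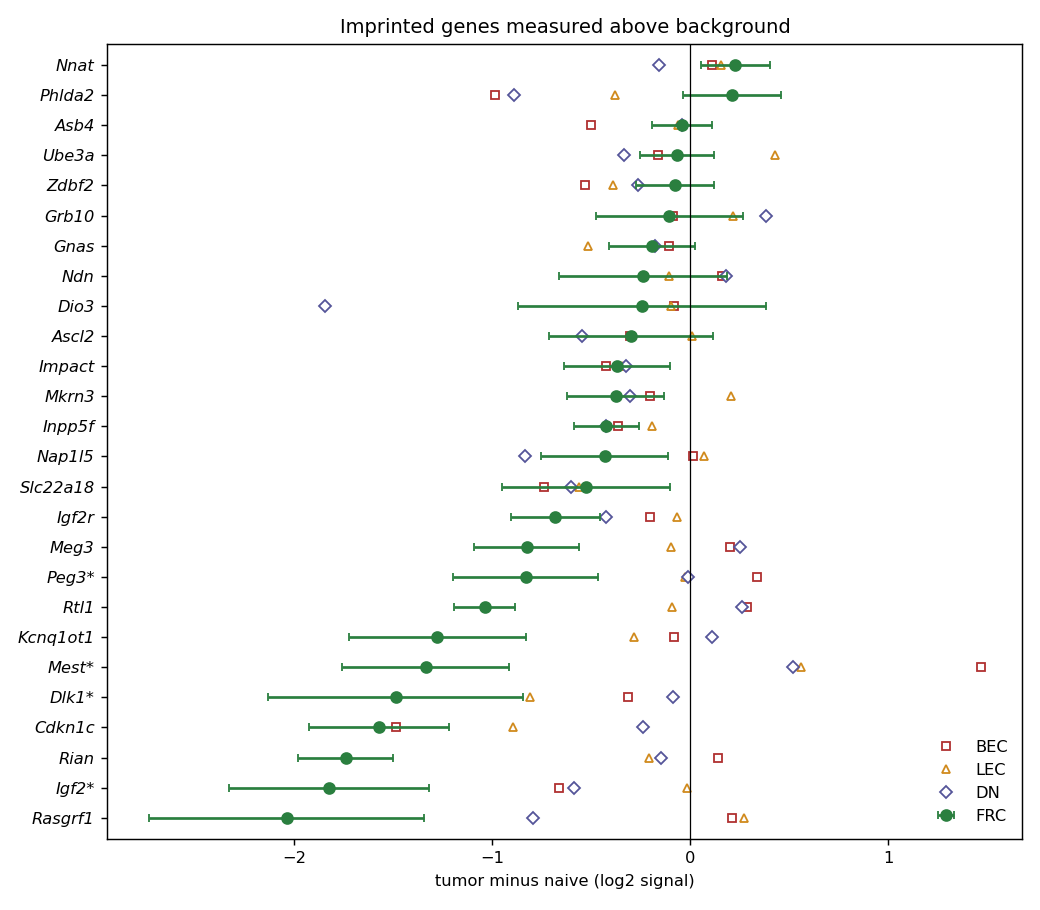
Tumor minus naive change in log2 signal (horizontal axis) of 26 imprinted genes above background in any group, ordered by their change in FRCs (green, with standard errors), beside BECs, LECs and DN cells (open symbols). Asterisks mark Mest, Igf2, Dlk1 and Peg3, and 24 of the 26 green points lie below 0.

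Of the IGF system genes, *Pappa*, *Pik3r1*, *Irs2* and *Kazald1* were called lower in FRCs. *Pappa*, which encodes the protease PAPP-A that cleaves IGF binding proteins, fell from 10.10, 10.02 and 10.37 to 8.68, 8.63 and 8.54. The change was -1.55 (SE 0.33, limma adjusted p = 0.0057), or 2.93-fold, and the call stood in 19 of 19 other settings. *Pik3r1*, the regulatory subunit of PI3 kinase, fell from 12.89, 13.06 and 13.25 to 11.85, 11.87 and 12.28 (change -1.06, SE 0.22, limma adjusted p = 0.0040). *Irs2*, an adaptor of the insulin and IGF receptors, had a change of -1.14 (SE 0.33, limma adjusted p = 0.0319), and *Kazald1*, a secreted protein with an IGFBP domain, one of -1.22 (SE 0.34, limma adjusted p = 0.0272). The *Irs2* call was lost without any 1 of the 6 FRC replicates and the *Kazald1* call without naive replicate 1 or 2 or tumor replicate 1 or 2. The only call of a higher signal was *Igfbpl1*, whose replicates had 4.75, 4.88 and 5.06 in naive FRCs, all below background, and 5.62, 5.74 and 5.58 in the tumor group, where 1 exceeded the level. Against the background level this was at least 1.01-fold higher (limma adjusted p = 0.0022), so almost all of the difference lay below background. The gene passed the filter only through tumor FRCs, so its higher signal there was partly set by the filter. The call stood in 12 of 19 other settings. Receptors did not pass in FRCs in the main setting. *Igf2r* had a change of -0.68 (SE 0.23, limma adjusted p = 0.0597) and *Insr*, the insulin receptor, one of -0.91 (SE 0.33, limma adjusted p = 0.0847). Both were lower without overlap and were called in some other settings. *Igf1r* had a change of -0.25 (SE 0.20, limma adjusted p = 0.479).

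In BECs, the naive and tumor replicates of all 8 genes overlapped, where 26.1% of all genes did not overlap. The limma test called *Mest* alone, higher, beside 3.62% of all genes called higher and 5.1% in either direction. *Mest* had 8.12, 9.44 and 8.08 in naive BECs and 10.83, 9.94 and 9.28 in the tumor group. Naive replicate 2 lay above tumor replicate 3, and the other naive replicates lay below all tumor ones. The change was 1.47 (SE 0.42), or 2.77-fold higher, and 1.92 without naive replicate 2. Its other 2 probes above background gave 1.42 and 1.73. The call stood in 10 of 19 other settings and was lost without naive replicate 1 or 3 or tumor replicate 1 or 2, and in a fit of the 6 BEC replicates alone.

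BEC naive replicate 2 was the highest naive replicate for 5 of the 8 genes, *Mest*, *Igf2*, *Dlk1*, *Peg3* and *Igfbp5*, where it was the highest for 37.4% of all genes. It had 10.20 for *Dlk1* against 7.64 and 7.88, and 12.83 for *Igfbp5* against 11.25 and 10.99. In this replicate the collagen gene *Col3a1*, a fibroblast marker, had 8.18 against 5.55 and 5.96, and the summed adipocyte markers had 14.20 against 12.63 and 12.65. *Pdgfra*, *Lum*, *Dcn*, *Col1a1* and *Col1a2* were also highest in it. The summed FRC markers went the other way, with 15.01 against 15.72 and 15.85. Among tumor BECs, *Col3a1* had 6.54, 8.42 and 8.45. Without naive replicate 2 the *Igfbp5* change went from 0.66 to 1.23 and was called, and that of *Dlk1* went from -0.31 to 0.50. *Igf1* had 9.63, 9.51 and 8.67 in naive BECs and 7.32, 7.62 and 9.29 in the tumor group, a change of -1.19 (SE 0.76) in which tumor replicate 3 fell inside the naive range. *Igf2*, *Igfbp3*, *Peg3* and *Igfbp7* had changes of -0.66, 0.25, 0.34 and -0.01. The part of fibroblast or adipocyte RNA in these values was not tested.

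Of the 55 other genes, 3 were called in BECs, or 5.45% beside 5.1% of all genes, and 11 differed at an unadjusted p under 0.05, beside 20.1% of all genes. There were 2 that fell, beside 1.49% of all genes, and 1 that rose. Without tumor replicate 2, 0 were called, 1 without naive replicate 1 or tumor replicate 1, and 2 to 4 without any of the others. *Cdkn1c* is given above. *Phlda2*, an imprinted gene that restrains placental growth, fell from 7.14, 6.65 and 6.91 to 5.80, 5.64 and 6.30 (change -0.98, SE 0.25, limma adjusted p = 0.0254), and it fell in DN cells as well (change -0.89, SE 0.25, limma adjusted p = 0.0337). In FRCs it overlapped, with a change of 0.21. The BEC call was lost without naive replicate 1 or 3 or tumor replicate 1 or 2. The DN call stood in 9 of 19 other settings and was lost without any replicate but tumor replicate 3.

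*Igf2bp3*, which encodes a fetal RNA-binding protein that binds *Igf2* transcripts, rose in BECs and DN cells. In BECs it had 5.35, 5.52 and 5.80 in naive mice, of which 1 was above background, and 9.24, 10.04 and 6.61 in the tumor group. The signal was at least 7.68-fold higher, with each naive replicate set at its own value or the background level, whichever was higher (limma adjusted p = 0.0060). In DN cells it had 5.35, 5.13 and 4.66, all at background, and 9.52, 8.96 and 7.20 in the tumor group, at least 7.59-fold higher against the background level (limma adjusted p = 0.0016). FRCs stayed within 5.37 to 5.84 and LECs within 5.08 to 6.43. Every naive group mean was below the background level, so the gene passed the filter only through tumor groups. Its higher tumor signals were partly set by the filter.

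The *Igf2bp3* signal was high in the replicates with high B cell marker signal. The summed B cell markers of tumor BECs were 12.04, 12.89 and 9.67 on the log2 scale, and those of tumor DN cells 13.67, 13.01 and 10.44, while all naive groups lay between 8.40 and 9.84. *Pax5* was below background in all 8 groups. In both cell types replicate 3 was the lowest tumor replicate for *Igf2bp3* and for the B cell markers. The BEC call was lost without tumor replicate 2. In DN cells the call stood without any 1 replicate, and a fit of the 6 replicates of a cell type alone called neither. The part of lymphoma or other B cell RNA in this rise was not tested.

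**Figure D4:**
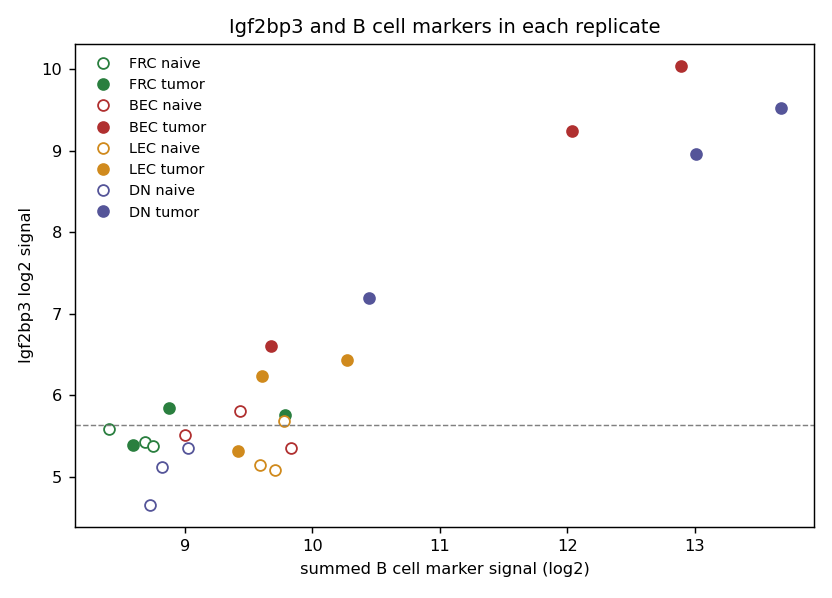
Igf2bp3 log2 signal (vertical axis) against the log2 of the summed signal of 6 B cell marker genes (horizontal axis) in 24 replicates, open for naive and filled for tumor, with the background level of 5.63 dashed. The 4 replicates with Igf2bp3 signals above 8 are tumor replicates 1 and 2 of BECs and of DN cells, and their B cell marker sums lie between 12.04 and 13.67.

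In LECs, none of the 8 genes was called by limma, and none differed at an unadjusted p under 0.05. Of all genes, 0.935% were called, 0.797% being higher, and 8.85% had an unadjusted p under 0.05. *Igf1* alone did not overlap. It had 10.77, 10.66 and 10.84 in naive LECs and 10.20, 9.23 and 10.59 in the tumor group, a change of -0.75 (SE 0.76), while 9.29% of all genes were lower without overlap in LECs. The change was -0.36 without tumor replicate 2. *Dlk1* had a change of -0.81 (SE 0.64) and *Mest* one of 0.56 (SE 0.42), both with overlap. *Igf2* changed by -0.01 with replicates from 10.77 to 11.00 over both states.

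LEC tumor replicate 2 stood apart for *Igfbp3*, with 12.22 against 9.25 and 8.90 in the other tumor replicates and 9.39 to 10.03 in naive LECs. The change of 0.39 became -0.66 without it. The same replicate had the highest summed blood endothelial markers of its group, 17.12 against 16.27 and 16.48, and *Igfbp3* was brightest in BECs. Tumor replicates 1 and 2 also carried pancreatic acinar markers, with sums of 16.50 and 14.53 against 7.94 to 8.49 in the other LEC replicates. The part of these cells in the LEC values was not tested. Of the 55 other genes, limma called 0 in LECs, 5 had an unadjusted p under 0.05, and array weights called 1.

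In DN cells, the replicates of all 8 genes overlapped between the states and limma called none, also none at an unadjusted p under 0.05, beside 7.43% of all genes called and 16% without overlap, 7.99% being lower and 8.01% higher. The replicates spread widely. *Igf1* had 8.49, 11.11 and 7.85 in naive DN cells and 6.86, 7.94 and 10.36 in the tumor group, with a change of -0.77 (SE 0.76) that became 0.22 without naive replicate 2 and -1.75 without tumor replicate 3. *Igfbp3* had 9.54, 12.72 and 9.28 in naive cells and 10.90, 11.09 and 10.99 in the tumor group, and its change of 0.48 (SE 0.72) became 1.58 without naive replicate 2. *Igf2*, *Dlk1*, *Peg3*, *Mest*, *Igfbp5* and *Igfbp7* had changes of -0.58, -0.08, -0.01, 0.52, -0.23 and 0.28.

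A single replicate led each DN group. Naive replicate 2 was the highest naive replicate for 8 of the 8 genes, where it was the highest for 42.2% of all genes, and tumor replicate 3 was the highest tumor replicate for 7 of the 8, where it was the highest for 45.5%. The same replicates had the highest summed FRC markers, 16.92 in naive replicate 2 against 15.34 and 15.17, and 16.42 in tumor replicate 3 against 14.97 and 15.38. *Col3a1* had 10.28, 11.56 and 9.99 in naive and 9.72, 9.69 and 11.82 in tumor DN cells. Skeletal muscle markers were present in all DN replicates, with sums from 11.63 to 14.23 against 8.55 to 10.22 in the other cell types. The part of FRCs in the DN values was not tested.

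**Figure D5:**
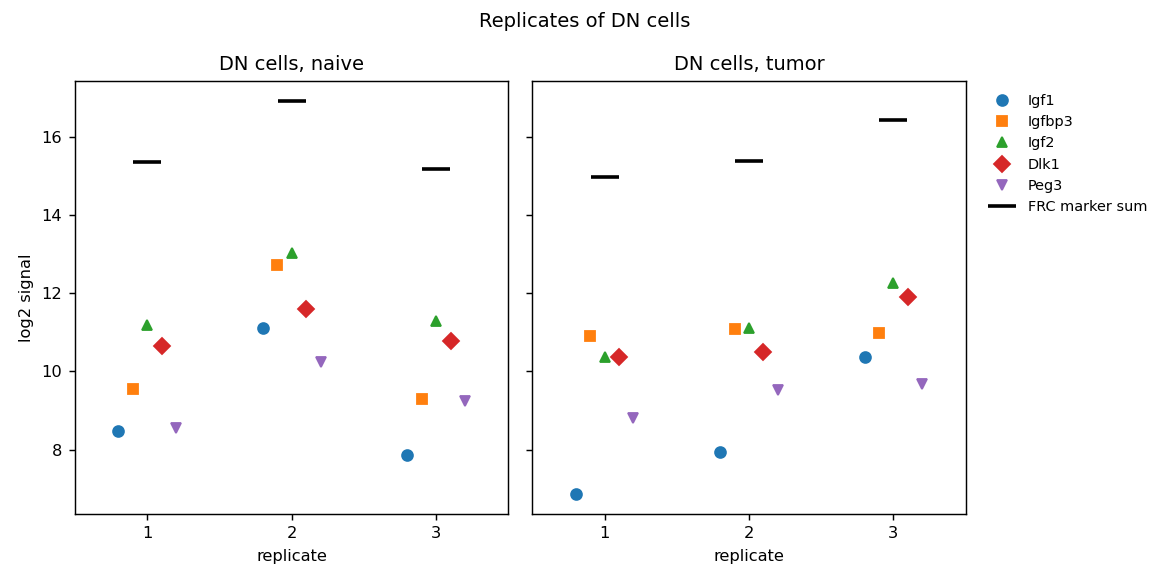
Log2 signal (vertical axis) of Igf1, Igfbp3, Igf2, Dlk1 and Peg3 and the log2 of the summed FRC marker signal (black bars) in the 3 replicates of naive and of tumor DN cells (horizontal axis). In naive cells all symbols are highest in replicate 2, and in tumor cells all but those of Igfbp3 are highest in replicate 3.

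Of the 55 other genes, 8 were called in DN cells, or 14.5%, with 4 higher and 4 lower, beside 4.81% of all genes called higher and 2.63% lower, and 14 had an unadjusted p under 0.05, beside 23.3% of all genes. Besides *Igf2bp3*, the genes that rose were *Esm1*, which encodes a proteoglycan of activated endothelium (change 3.20, SE 0.70, limma adjusted p = 0.0087), *Igfbp2*, a binding protein with 1 naive replicate above background (at least 2.71-fold higher, limma adjusted p = 0.0237), and *Ccn4*, which encodes a matricellular protein (change 1.25, SE 0.32, limma adjusted p = 0.0226). *Esm1* had 7.31, 8.36 and 7.11 in naive and 11.15, 11.18 and 10.07 in tumor DN cells. In the same cells 6 of 10 blood endothelial markers rose, their sums going from 13.29 to 13.99 in naive up to 14.56 to 14.93 in tumor replicates, and *Pecam1* had 7.50 ± 1.71 (SD, n = 3) against 10.76 ± 0.30. The part of endothelial RNA in the *Esm1* rise was not tested.

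The genes that fell in DN cells besides *Phlda2* were *Foxo3*, a transcription factor held back by insulin and IGF signalling (change -1.04, SE 0.26, limma adjusted p = 0.0181), *Cish*, a feedback inhibitor of growth hormone and cytokine signalling (change -1.04, SE 0.25, limma adjusted p = 0.0149), and *Igf1r*, the IGF1 receptor. *Igf1r* had 10.22, 10.91 and 10.55 in naive and 9.64, 9.91 and 10.14 in tumor DN cells, a change of -0.66 (SE 0.20, limma adjusted p = 0.0490), and the call stood in 8 of 19 other settings. In BECs the *Igf1r* change of -0.62 (SE 0.20) had no overlap and did not pass (limma adjusted p = 0.0762). A fit of the 6 DN replicates alone called 0 of the 55 and 0 of all genes. Without DN tumor replicate 1, 2 of the 55 were called, *Foxo3* and *Igf2bp3*. Without tumor replicate 2 there were 4, without naive replicate 3 there were 5, and without any of the others 7 to 10. *Igfbp2* also lost its call without naive replicate 1, and *Igf1r* without naive replicate 2.

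Over the 24 replicates, Pearson's r between the log2 signals of the 8 genes ran from -0.64 for *Igfbp5* with *Igfbp7* to 0.77 for *Peg3* with *Igfbp5*, and *Igf2* with *Mest* had 0.01. The replicates share slides and cell types, so these values describe the order of the groups. The genes most like each by this measure, over the same 24 replicates, were *Nid2* (0.919) and *Adamts7* (0.897) for *Mest*, *Stard13* (0.78) and *Pygm* (0.772) for *Igf2*, and *Agtr1a* (0.952) and *Lin7a* (0.935) for *Dlk1*. They were *Col5a2* (0.983) and *Alx4* (0.977) for *Peg3*, *Mras* (0.949) and *Ltbp1* (0.927) for *Igf1*, *Cdr2* (0.954) and *Tmem47* (0.94) for *Igfbp3*, *Dkk3* (0.971) and *Cacna2d1* (0.965) for *Igfbp5* and *Rtl8a* (0.881) and *Zfp182* (0.87) for *Igfbp7*.

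Where a gene had more than 1 probe above background, the probes gave changes of the same sign in every cell type with 2 exceptions. The second *Dlk1* probe had 0.04 in DN cells against -0.08, and the second *Igfbp3* probe had -0.37 in LECs against 0.39. Sizes could differ where signs did not. The second, dimmer *Peg3* probe had -0.83 in DN cells against -0.01, and the second *Dlk1* probe had -0.01 in LECs against -0.81. *Igf2* was read by a single probe, and the other 4 probes of *Igfbp7* stayed at background in all groups, so the values of these 2 genes have no second probe behind them.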

How the data were processed

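Sorted lymph node stromal cells were profiled on Illumina bead arrays (48 strips, 24 replicates, 8 groups). The log2 values of 45281 probes were deposited by the authors, whose background correction and normalization are not given in the sources used here, and 122 cells were empty. Bead intensity values per strip were deposited by the authors with probe codes only and served for alternatives, after 45156 codes had been linked to probes by profile. Groups were taken from the labels for cell type and state.

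Log2 values were quantile normalized over strips and averaged per replicate. The background level was the mode of signals plus 3 robust SDs. Of 34885 probes with 1 gene symbol, 21144 had a group mean above it, and each gene was read from its brightest probe. Tumor minus naive differences came from a limma 3.58.1 model of the 8 group means under R 4.3.3 (16 residual degrees of freedom, 1 spread per gene over all cell types, Benjamini-Hochberg adjustment, threshold 0.05), and differences between cell types from its interaction contrasts. The script was tested on simulated data. Motifs and figures were made with Python 3.11.15, pandas 2.3.3 and matplotlib 3.10.9.

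The 10 genes and the gene lists were chosen with earlier results of these data known. Named genes were the 10, up to 6 called list genes per cell type by adjusted p and the 2 most correlated genes of each. *Kazald1*, *Irs2*, *Meg3*, *Igf2r*, *Insr*, *Lyve1*, *Col3a1* and the other fibroblast genes were named after their values were seen. So were *Ccl19*, *Asb4*, *Ascl2*, *Zdbf2*, *Nap1l5*, *Nnat*, and *Phlda2* and *Igf1r* in DN cells. Marker lists covered FRCs, blood and lymphatic endothelium, pericytes, leukocytes, B cells, myeloid cells, adipocytes, Schwann, muscle, epithelial and acinar cells and the cell cycle. Same-numbered naive and tumor replicates had correlated deviations above 0.1 in every pair only in LECs (0.2, 0.23 and 0.15), from the data and not the labels, and a replicate block is among the alternatives with normalization, filter, strips, probes, array weights, trend, bead means, a t-test and leaving out each replicate.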

Additional observations from a re-analysis of the deposited data

Results flagged for a closer look

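The limma interaction contrast compares the tumor minus naive change in FRCs with that in another cell type. Of the 55 other IGF and imprinted genes, it called 3 against BECs, 2 against LECs and 3 against DN cells. Of all genes it called 0.935%, 0.613% and 1.26%. The differences came from 3 genes, each at or near background in the other cell type. These differences repeat the FRC changes and show no difference in response between cells that express the genes. For *Rian* they were -1.88 against BECs, -1.53 against LECs and -1.59 against DN cells, in all of which no replicate was above background. For *Rtl1* they were -1.33 against BECs, with no replicate above background, and -1.30 against DN cells, where 2 tumor replicates were. For *Igfbpl1* they were 0.99 against BECs, 1.07 against LECs and 0.81 against DN cells, and only 1 replicate of tumor FRCs was above background, so they are differences among background values. This gene passed the filter only through tumor FRCs, so its calls were partly set by the filter.

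For *Mest*, *Peg3*, *Igfbp3* and *Igfbp5*, all tumor replicates of FRCs lay below the naive FRC mean. All tumor replicates of another cell type lay above its naive mean, but there naive and tumor replicates overlapped in every case. Naive replicate 2 lay above all tumor replicates for *Peg3* and *Igfbp5* in BECs and for *Mest* and *Igfbp3* in DN cells. The share of all genes that meet this rule was not taken. The change in FRCs minus that in the other cell type was -2.80 (BECs), -1.89 (LECs) and -1.86 (DN cells) for *Mest*, -1.17 (BECs) for *Peg3*, -0.92 (BECs) and -1.15 (DN cells) for *Igfbp3*, and -1.17 (BECs) for *Igfbp5*. These differences were not tested, since the genes were chosen with their changes known.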

How the results depend on the processing

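The methods' t-test below is among the tests that the study's methods list in general, and they name no test for these arrays. The count of the 8 genes called in FRCs, 2 in the main setting, was 1 with values as deposited, without the filter on dim probes, with the replicate block, with the second strip alone, by the methods' t-test and with bead means with or without background correction. Array weights gave 4, as did a separate fit of the cell type's 6 replicates. It was 0 to 1 when 1 replicate was left out. In BECs, 1 became 0 without the filter, in the separate fit, with the replicate block, by the methods' t-test and with the second strip alone, 4 with array weights, and 0 to 2 when 1 replicate was left out. Of the 55 other genes, 8 called in FRCs became 15 in the separate fit, 28 with array weights, 5 by the methods' t-test, 13 with uncorrected bead means and 5 to 10 when 1 replicate was left out. In BECs 3 became 0 in the separate fit and by the methods' t-test, 1 with the replicate block, 16 with array weights and 0 to 4 when 1 was left out. In LECs 0 became 1 with array weights. In DN cells 8 became 0 in the separate fit and by the methods' t-test, 5 with the replicate block and with the first strip alone, and 2 to 10 when 1 was left out. The cause was not tested. The calls over all genes ranged from 482 to 5232 in FRCs (main 1380), 0 to 4010 in BECs (666), 0 to 535 in LECs (122) and 0 to 2848 in DN cells (970). The array weights stopped before they converged. Under the block that pairs the replicate numbers, the 122 calls over all genes in LECs became 85. LECs were the cell type whose pairs all correlated above 0.1. None of the 8 or of the 55 was called in LECs with or without the block. The changes of the 8 genes moved by less than the spread between replicates in 602 values under the alternatives and by more in 6, all of *Mest*, which ranged from -1.45 to -0.93 in FRCs and reached 2.34 in BECs with array weights. No called change turned its sign.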
